A study of Homo sapiens with 8 samples.

Results

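The genes described here are those of the lysosomal proton pump, the cathepsins and the lysosome-associated membrane proteins (LAMPs). They were taken by symbol from a table of 20323 genes, as every row whose symbol begins with ATP6V0 or ATP6V1 and a subunit letter A to H, or is ATP6AP1, ATP6AP2, a cathepsin (CTS and a letter) or LAMP1 to LAMP5. The rule found 46 rows with 45 symbols. The tested libraries came from H2452 cells kept for 48 h in deoxypodophyllotoxin at 20 nM (4 libraries, written DPT), a lignan of plants known to bind tubulin and keep microtubules from forming, and the control libraries from H2452 cells kept for 48 h in the solvent DMSO (4 libraries). H2452 is an established human line of biphasic pleural mesothelioma, labelled wild type in both groups. The data come from 1 cell line at 1 dose and 1 time. P-values of the fit on all 8 libraries with treatment as the single term measure the spread between the cultures described as biological replicates.

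The vacuolar ATPase is a rotary pump. Its V1 sector, in the cytosol, splits ATP and turns a shaft that drives protons through the V0 sector in the membrane, which acidifies lysosomes, endosomes and secretory vesicles. Cathepsins are proteases that mostly work in that acid interior and are grouped by the residue at their active site into cysteine, aspartic and serine types. LAMPs are heavily glycosylated proteins of the lysosomal membrane. Lysosomes move along microtubules, and permeabilised lysosomes release cathepsins into the cytosol during some forms of cell death.

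In the deposited annotation 38 of the 46 rows carried a lysosomal component term of the Gene Ontology and 28 the KEGG pathway Lysosome. A row with the symbol CTSD, ENSG00000250644, is named AC068580.4 in GENCODE and shares 1304 exon bases with CTSD and 1062 with IFITM10. It is given apart from CTSD, with the read-through transcript ATP6V1G2-DDX39B and ATP6V1FNB, a neighbour of ATP6V1F. No row had the symbol LAMP4; CD68, a related protein also known as LAMP4, measured 127, 87.9, 119.5 and 128.1 CPM in DPT replicates 1 to 4 and 99.8, 102.6, 82.9 and 103.6 CPM in DMSO replicates 1 to 4.

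Library totals were 16087550 to 16524401 counts with DPT and 14964432 to 17205391 counts with DMSO. DPT replicate 2 and DMSO replicate 3 stood apart from the other 6 libraries, at 29.26 and 40.76 on the first principal component against -25.6 to -1.02. They held less message of 23 interferon-stimulated genes (a mean of 5.78 and 6.30 log2 CPM, against 8.13 to 8.28 in the others) and more of 19 mitosis genes (7.26 and 7.14, against 6.43 to 6.61). Since 1 library of each group stood apart, a model term for this pair and a fit on the other 6 libraries are given beside the fit on all 8. Of 13 mesothelial markers 12 passed the filter on low counts, among them KRT8, KRT18, MSLN, CALB2 and WT1, while ITLN1 was listed at 0. Their summed level was 2283 to 3670 CPM with DPT and 3473 to 4966 CPM with DMSO. Of the 12, 2 fell (16.7%, beside 5.29% of all tested genes). With the term for the pair 2 rose (16.7%, beside 16.9%) and 7 fell (58.3%, beside 17%). In DESeq2 1 rose (8.33%, beside 6.89%) and 5 fell (41.7%, beside 6.78%). Of 10 leukocyte and macrophage markers CD14 alone passed, and the list's summed level was 7.43 to 19.3 CPM with DPT and 9.11 to 27.2 CPM with DMSO. TYROBP was at 0 in every library. Of 6 endothelial markers 3 passed (summed level 8.15 to 16.2 CPM with DPT and 5.84 to 9.82 CPM with DMSO). Among them 1 rose (33.3%, beside 5.68% of all tested genes), and 2 rose with the term (66.7%, beside 16.9%). Of 6 osteoclast markers 2 passed (17.4 to 19.8 CPM with DPT and 15.9 to 17.2 CPM with DMSO). The part of these markers in the results below was not tested. In bulk RNA, fewer cells that carry a message and less message per cell cannot be told apart.

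Per length, the message of most paralogue families of the pump came mainly from 1 gene. Of the B subunit, a part of the ATP-splitting head, ATP6V1B2 gave 99.93% ± 0.05 of the family's FPKM with DPT and 99.83% ± 0.26 with DMSO (mean ± SD, n = 4 each), and ATP6V1B1, known from kidney and inner ear, gave nearly none. ATP6V1C1, ATP6V1E1, ATP6V1G1 and ATP6V0D1 likewise gave 97.5%, 98.9%, 99.5% and 99.9% of the C, E, G and d families over all 8 libraries. The e family was less one-sided, with 87.3% ± 1.09 from ATP6V0E1 with DPT and 87.35% ± 2.04 with DMSO, the remainder from ATP6V0E2.

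The message for the a subunit, the membrane arm that also steers the pump to its compartment, came from several genes. With DPT, ATP6V0A1 gave 37.6% ± 2.44, ATP6V0A2 17.5% ± 1.28, TCIRG1 (the a3 subunit, outside the symbol rule) 43.3% ± 3.47 and ATP6V0A4 1.59% ± 0.21 of the family's FPKM. With DMSO the shares were 36.3% ± 3.21, 14.25% ± 0.77, 48.6% ± 2.64 and 0.823% ± 0.427 (SD, n = 4 each). These shares are given without a test, since each gene is tested on its own below.

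CTSD, an aspartic protease, was the most abundant cathepsin, with 52.6% ± 2.32 of cathepsin FPKM with DPT and 59.7% ± 2.26 with DMSO. CTSB gave 18.3% ± 1.01 with DPT and 17.2% ± 2.07 with DMSO, and CTSL 13.6% ± 4.52 with DPT and 7.57% ± 1.61 with DMSO. CTSA stood at 9.45% ± 1.15 with DPT and 9.40% ± 0.71 with DMSO. Among the LAMPs, LAMP1 gave 66.6% ± 0.51 with DPT and 64.5% ± 1.16 with DMSO, and LAMP2 gave 32.0% ± 0.85 with DPT and 34.3% ± 1.44 with DMSO. Mean FPKM over the 8 libraries spanned 976 for CTSD, 306 for CTSB, 185 for CTSL, 162 for CTSA and 153 for ATP6V1E1, down to 0 for CTSG, the neutrophil serine protease. Between neighbours in this order, CTSL and CTSA overlapped in their libraries, as did CTSA and ATP6V1E1.

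**Figure D1:**
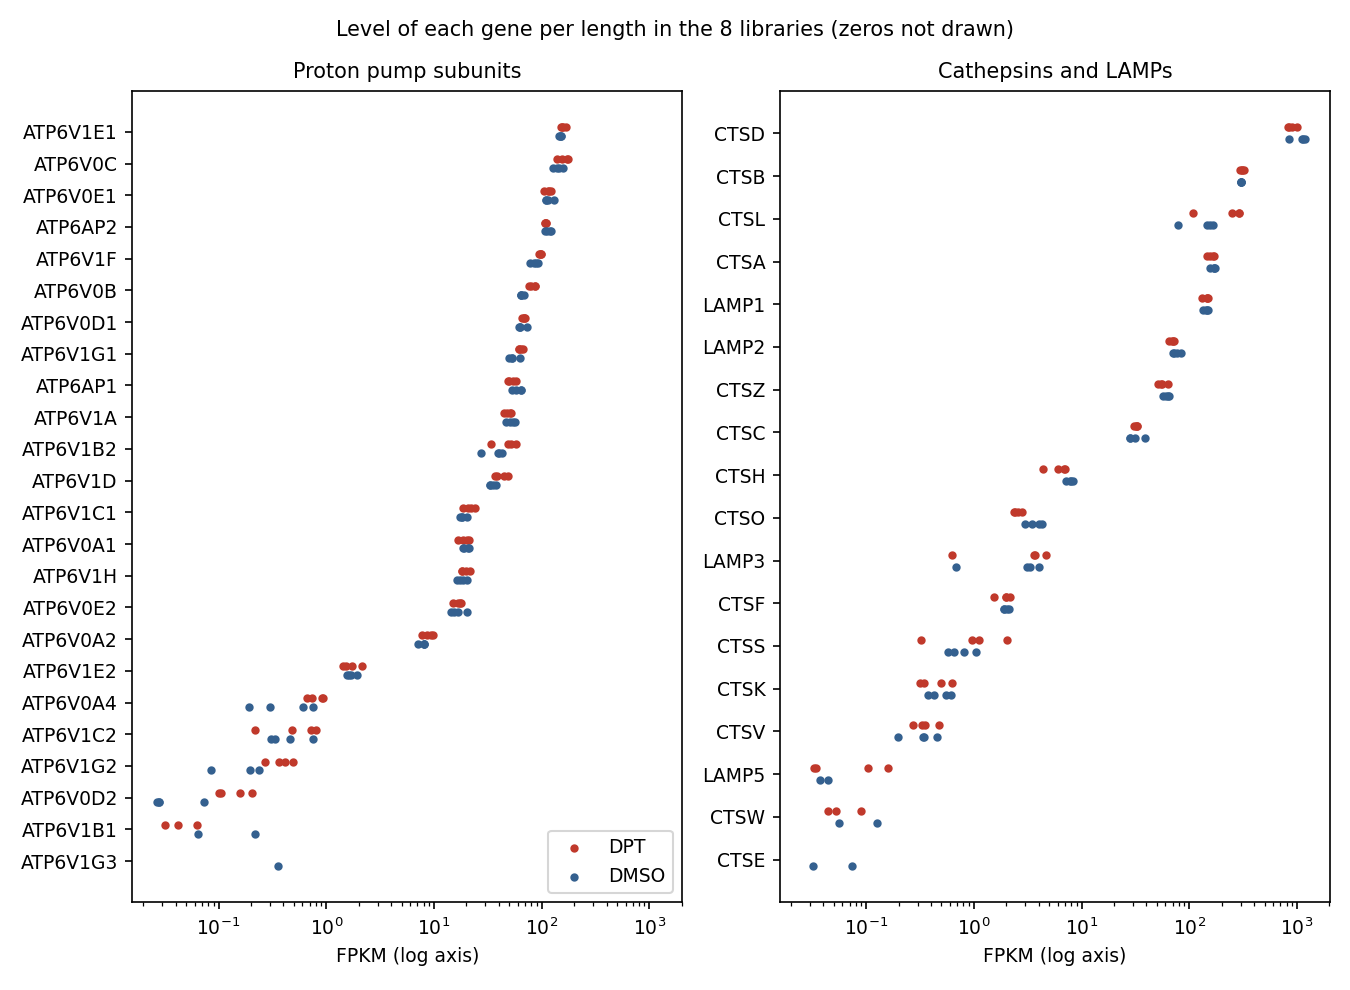
FPKM (log axis) of the pump subunits (left) and of the cathepsins and LAMPs (right), 1 point per library, DPT in red above DMSO in blue; zeros are not drawn, and CTSG, at 0 in all libraries, has no row. CTSD lies near 1000 FPKM and the minor paralogues such as ATP6V1B1 and ATP6V1G3 lie below 1 FPKM; the lowest points of CTSL, ATP6V1B2 and LAMP3 in each group are DPT replicate 2 and DMSO replicate 3.

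Promoter windows of 30 of the 45 symbols were found in RefSeq's table (GRCh38.p14, 250 bases before to 50 after a gene's start, 37 windows with alternative starts, some of which overlap). The 6-letter palindrome CACGTG is the core of the element that the lysosomal factors TFEB and TFE3 bind. It was found in 9 of the 37 windows (24.3%), those of ATP6V0B, ATP6V0D1, ATP6V0E2, ATP6V1G1, CTSA, CTSD, CTSF and LAMP1, and in 7.26% of all 35116 windows of that length. The longer TCACGTGA, which contains it, was in 4 of 37 member windows (10.8%: ATP6V0D1, ATP6V1G1, CTSA and LAMP1) and in 0.98% of all. A match is a match of letters, not evidence of binding. The windows of 4 members described below, of which LAMP1 was not called in any fit, are shown because they differ in this motif, with 6 matches in LAMP1, 2 in ATP6V0B, 1 in CTSD and none in CTSL. They are ATP6V0B at chr1:43974710-43975009 (plus strand), CTSD at chr11:1763878-1764177 (minus strand), CTSL at chr9:87725869-87726168 (plus strand) and LAMP1 at chr13:113296989-113297288 (plus strand), written 5′ to 3′ along the gene with CACGTG in capitals.
ATP6V0B: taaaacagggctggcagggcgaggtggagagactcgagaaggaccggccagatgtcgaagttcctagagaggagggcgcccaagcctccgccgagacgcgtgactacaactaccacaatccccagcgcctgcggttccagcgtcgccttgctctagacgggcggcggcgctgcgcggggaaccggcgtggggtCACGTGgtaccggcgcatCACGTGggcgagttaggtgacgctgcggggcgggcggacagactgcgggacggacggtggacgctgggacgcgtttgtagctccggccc
CTSD: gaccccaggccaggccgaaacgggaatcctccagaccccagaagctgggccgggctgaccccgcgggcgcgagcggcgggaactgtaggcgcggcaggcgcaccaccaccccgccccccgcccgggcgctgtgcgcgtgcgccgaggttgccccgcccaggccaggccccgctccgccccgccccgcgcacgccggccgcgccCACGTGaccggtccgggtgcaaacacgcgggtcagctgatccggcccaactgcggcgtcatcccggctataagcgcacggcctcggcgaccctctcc
CTSL: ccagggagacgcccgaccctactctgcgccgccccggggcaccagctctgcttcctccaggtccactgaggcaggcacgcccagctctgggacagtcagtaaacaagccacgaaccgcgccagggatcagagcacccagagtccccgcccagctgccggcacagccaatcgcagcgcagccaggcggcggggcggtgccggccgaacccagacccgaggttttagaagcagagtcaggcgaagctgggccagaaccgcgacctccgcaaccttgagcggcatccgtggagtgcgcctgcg
LAMP1: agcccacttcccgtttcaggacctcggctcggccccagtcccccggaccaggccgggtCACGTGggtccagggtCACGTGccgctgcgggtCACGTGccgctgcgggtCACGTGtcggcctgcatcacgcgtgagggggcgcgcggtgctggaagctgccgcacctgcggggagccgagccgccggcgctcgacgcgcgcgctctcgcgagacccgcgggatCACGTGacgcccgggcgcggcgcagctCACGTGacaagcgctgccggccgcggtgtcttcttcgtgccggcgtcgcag

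DPT was set against DMSO to ask which of these messages differ after 48 h with a tubulin binder. With all 8 libraries ATP6V0A4 and ATP6V0B rose and CTSO and LAMP2 fell. CTSL had the largest difference among members above 5 CPM, 1.69-fold higher, and was not called with all 8 libraries; its level in the pair of libraries was below that in the others of each group. In the fit with the pair term CTSL rose, and CTSD fell. Of the 46 rows 37 passed the filter on low counts, and 2 rose and 2 fell, which is 10.8% of those tested beside 11% of all tested genes (5.68% higher and 5.29% lower), so the count is at the background. At an unadjusted p under 0.05, 6 members were higher (16.2%, beside 13.5% of all) and 7 lower (18.9%, beside 13% of all; 26.5% of all in either direction). DESeq2 called 3 higher and 4 lower of the 40 members to which it gave an adjusted p (17.5%, beside 13.7% of all, 6.89% higher and 6.78% lower). The median log2 fold change was -0.04 over the tested members and -0.002 over all tested genes. In 8 tested members the groups did not overlap, beside 18.2% of all tested genes: DPT lay above in 4, beside 9.5% of all, and below in 4, beside 8.73% of all.

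With the term for the pair 7 members rose and 8 fell (40.5%, beside 34% of all tested genes), and without the pair of libraries 7 rose and 9 fell (43.2%, beside 34.1%). The shares by role below stand beside 16.9% higher and 17% lower of all tested genes with the term. In the 6 libraries these were 17% and 17.1%. Of 20 tested subunits of the pump and its accessory proteins 6 rose (30%) and 2 fell (10%) with the term, with a median of 0.05. In the 6 libraries 5 rose (25%) and 3 fell (15%), with a median of 0.10. The 15 pump partners outside the symbol rule, TCIRG1 among them, leaned the other way with the term (1 rose, 6.67%, and 5 fell, 33.3%). Of 11 tested cathepsins 1 rose (9.09%) and 4 fell (36.4%) with the term, with a median of -0.10. In the 6 libraries 2 cathepsins rose (18.2%) and 4 fell (36.4%), and the median was near 0 (-0.0081). The medians and counts are given as a description of these genes, with no test of the difference between them. Replicates of a group differed by 14.9% (biological coefficient of variation) without the term and by 6.3% with it. P-values with the term or in the 6 libraries thus leave out the spread between the pair and the other libraries. The pair was picked from these same data.

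**Figure D2:**
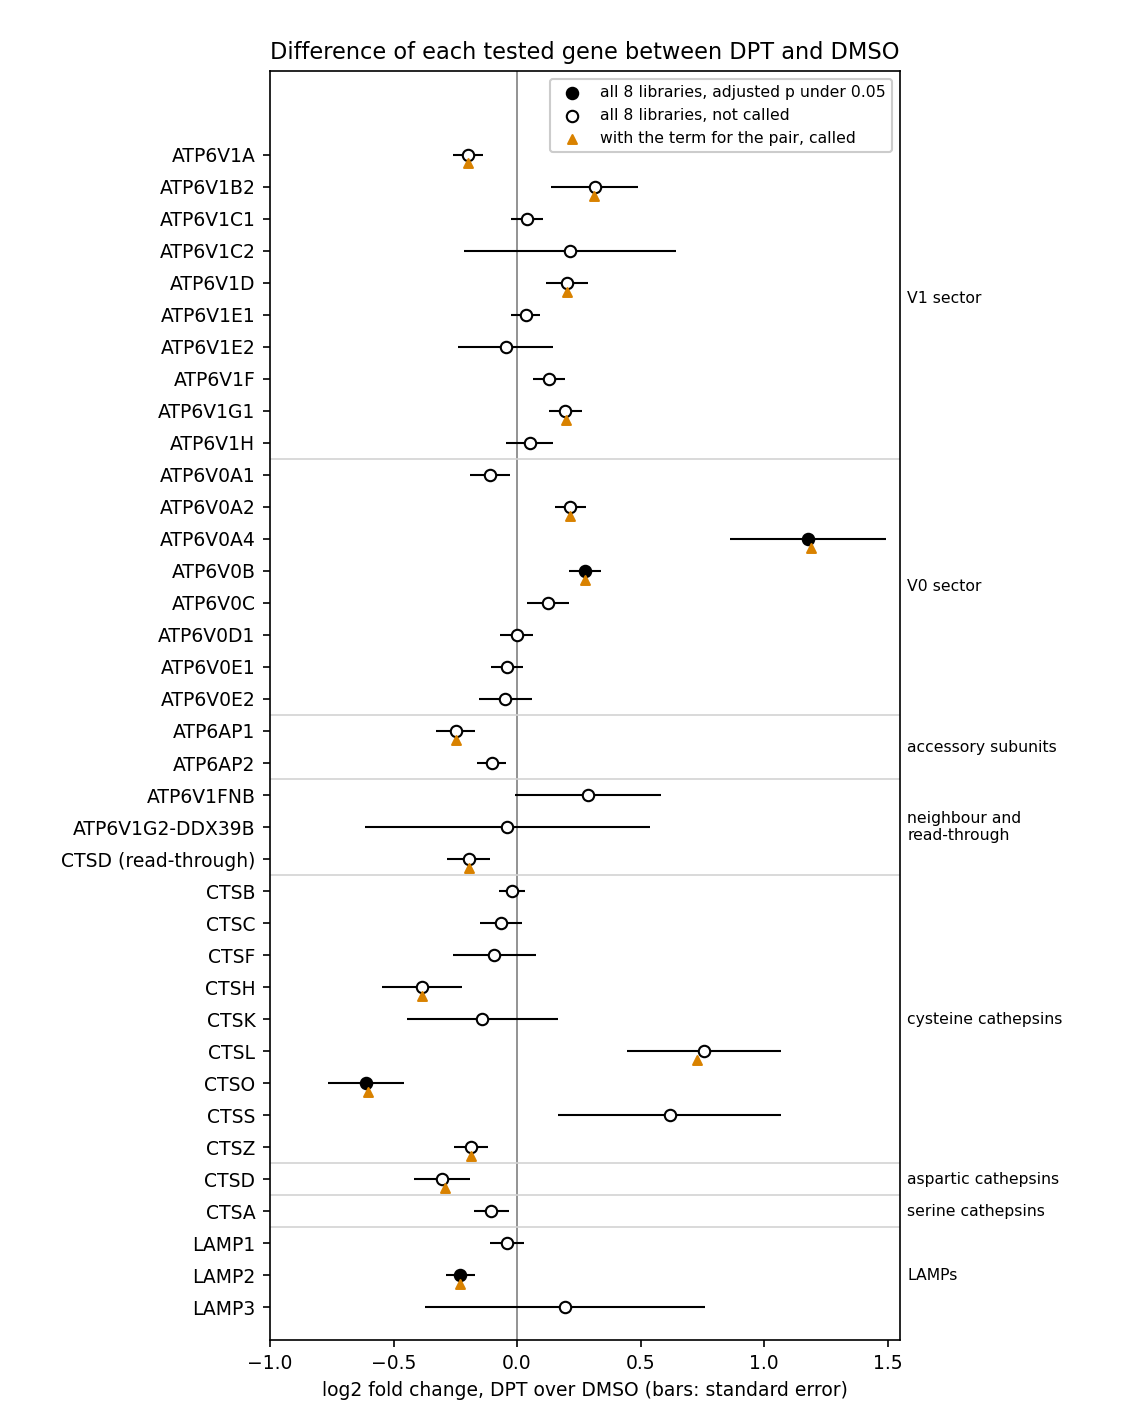
Log2 fold change of DPT over DMSO (x axis) of the 37 tested members, by role; circles are the fit on all 8 libraries with standard errors, filled where the adjusted p was under 0.05, and triangles are the fit with the pair term, drawn only where called. Filled circles are ATP6V0A4 (1.18) and ATP6V0B (0.27) to the right and CTSO (-0.61) and LAMP2 (-0.23) to the left; CTSL (0.76) has a wide error and a triangle at 0.73.

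In the V1 sector no subunit was called with all 8 libraries (edgeR, 10 tested). At an unadjusted p under 0.05, 2 were higher (20%, beside 13.5% of all tested genes) and 1 lower (10%, beside 13%). DESeq2 called ATP6V1A lower. ATP6V1E1, a stalk subunit and the most abundant of the sector, measured 195.2, 219.4, 199.4 and 206.0 CPM in DPT replicates 1 to 4 and 199.2, 195.2, 200.3 and 205.9 CPM in DMSO replicates 1 to 4. The groups overlapped and the log2 fold change was 0.03 (SE 0.06, adjusted p = 0.767). ATP6V1B2 (ENSG00000147416, chromosome 8, 20197367 to 20226819) measured 136.3, 93.6, 156.6 and 143.8 CPM in DPT replicates 1 to 4 and 110.5, 115.8, 77.2 and 123.1 CPM in DMSO replicates 1 to 4. DPT replicate 2 and DMSO replicate 3 were each the lowest of their group, and DPT replicate 2 lay below 3 of the DMSO libraries. The log2 fold change was 0.31 (SE 0.18, adjusted p = 0.3), with the pair term 0.31 (adjusted p = 0.000235), in the other 6 libraries 0.32, and between DPT replicate 2 and DMSO replicate 3 it was 0.28; the adjusted p ranged from 0.000235 to 0.551 over all alternatives.

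ATP6V1A, the catalytic subunit, was the V1 member with the largest negative difference. It had 179.9, 173.1, 188.9 and 186.7 CPM in DPT replicates 1 to 4 and 205.6, 203.3, 224.5 and 202.7 CPM in DMSO replicates 1 to 4. All DPT libraries lay below all DMSO libraries (log2 difference -0.20, SE 0.06, adjusted p = 0.068), and it fell with the pair term (adjusted p = 0.00386, between 0.00386 and 0.486 over all alternatives). ATP6V1G1, a stalk subunit, had 86.7 to 94.6 CPM with DPT and 70.4 to 81.1 CPM with DMSO and rose by 0.20 with the term (adjusted p = 0.00468, between 0.00468 and 0.251 over all alternatives). ATP6V1D, part of the rotor shaft, rose by 0.20 with the term alone (adjusted p = 0.0257, between 0.0257 and 0.337 over all alternatives; 0.118 in the 6 libraries). ATP6V1A thus had the opposite sign to these partner subunits. The other tested V1 members, ATP6V1C1, ATP6V1C2, ATP6V1E2, ATP6V1F and ATP6V1H, had log2 fold changes of -0.05 to 0.22, and none was called with the term or in the 6 libraries.

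In the V0 sector 2 of 8 tested subunits rose (25%, beside 5.68% of all tested genes). DESeq2 called 3 higher, ATP6V0A2 among them, beside 6.89% of all. ATP6V0B (ENSG00000117410, chromosome 1, 43974487 to 43978295), which encodes a proteolipid of the proton-carrying ring, measured 79.0, 87.0, 78.7 and 88.1 CPM in DPT replicates 1 to 4 and 67.2, 72.6, 66.7 and 68.6 CPM in DMSO replicates 1 to 4. All DPT libraries lay above all DMSO libraries, and the pair did not stand apart. The log2 fold change was 0.27 (SE 0.06, adjusted p = 0.0256), and 0.27 with the pair term. The call was lost without DPT replicate 4 (adjusted p = 0.0852), DMSO replicate 1 (0.0871), DMSO replicate 2 (0.0513) or DMSO replicate 4 (0.0823), at log2 fold changes of 0.25 to 0.30. ATP6V0C, the other ring proteolipid and the most abundant V0 gene, measured 175.0, 174.9, 147.6 and 156.6 CPM in DPT replicates 1 to 4 and 148.7, 132.6, 163.0 and 155.3 CPM in DMSO replicates 1 to 4. Its groups overlapped (log2 fold change 0.13, SE 0.08, adjusted p = 0.391), and 862 of its exon bases are shared with AC093525.2 on the same strand, so that its reads may be divided.

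Among the a subunits ATP6V0A4 (ENSG00000105929, chromosome 7, 138706294 to 138799560), known from the acid-secreting cells of the kidney, had 2.75, 1.98, 2.81 and 2.08 CPM in DPT replicates 1 to 4 and 1.22, 0.949, 1.52 and 0.527 CPM in DMSO replicates 1 to 4. All DPT libraries were higher, at a low level of 33 to 47 expected counts with DPT and 8 to 26 with DMSO. It rose 2.26-fold (log2 fold change 1.18, SE 0.31, adjusted p = 0.0415), by 1.19 with the pair term and by 1.5 in the 6 libraries. The call was lost without any of DPT replicates 1, 3 and 4 (0.0841 to 0.119) and DMSO replicates 1, 2 and 4 (0.0865 to 0.107), at log2 fold changes of 0.955 to 1.25, with no filter (0.0504) and in limma on FPKM (0.162 and 0.176), and 153 of its exon bases lie on the opposite strand of TMEM213. ATP6V0A2, known from Golgi and endosomes, had 40.2 to 42.9 CPM with DPT and 35.0 to 37.9 CPM with DMSO, with no overlap. Its log2 fold change was 0.22 (SE 0.06, adjusted p = 0.0533), and it rose with the pair term (adjusted p = 0.0115, between 0.00638 and 0.296 over all alternatives).

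TCIRG1, the a3 subunit known from osteoclast and secretory lysosomes, went the other way. It had 52.2, 56.2, 48.2 and 45.8 CPM in DPT replicates 1 to 4 and 64.7, 61.1, 66.0 and 59.6 CPM in DMSO replicates 1 to 4, and fell by 0.31 on the log2 scale (SE 0.08, adjusted p = 0.0309). All DPT libraries lay below all DMSO libraries. The call was lost without DPT replicates 1, 3 or 4 (0.0623 to 0.0989) or DMSO replicates 1, 2 or 4 (0.0594 to 0.0946), at log2 fold changes of -0.34 to -0.27, and in limma on FPKM (0.0978 and 0.0984). ATP6V0A1 overlapped (-0.11, adjusted p = 0.438), as did ATP6V0D1 (0.00), ATP6V0E1 (-0.04) and ATP6V0E2 (-0.05).

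The accessory subunits ATP6AP1 and ATP6AP2 help assemble the pump. ATP6AP2, the more abundant, measured 209.0, 207.2, 202.6 and 220.1 CPM in DPT replicates 1 to 4 and 228.0, 232.2, 211.8 and 229.1 CPM in DMSO replicates 1 to 4. The groups overlapped by 1 library (log2 fold change -0.10, SE 0.06, adjusted p = 0.304), and the 6 libraries gave -0.13 (adjusted p = 0.0358, between 0.0358 and 0.519 over all alternatives). ATP6AP1 had 107.7, 106.3, 97.7 and 96.2 CPM in DPT replicates 1 to 4 and 130.5, 119.5, 106.2 and 128.6 CPM in DMSO replicates 1 to 4, where DMSO replicate 3 was the lowest. Its log2 fold change was -0.25 (SE 0.08, adjusted p = 0.0761), and it fell with the pair term (adjusted p = 0.0052), as it did when DMSO replicate 3 was left out (-0.31, adjusted p = 0.0181), between 0.000164 and 0.207 over all alternatives. DESeq2 on all 8 libraries also called ATP6AP1 lower. Summed over all 24 pump and accessory genes, the level was 1783 to 1817 CPM with DPT and 1750 to 1810 CPM with DMSO, which overlapped. In FPKM the sum was 1112 to 1155 with DPT and 1039.8 to 1085 with DMSO. The mean of their log2(CPM + 1) was 4.84 to 4.89 with DPT and 4.77 to 4.78 with DMSO. Neither overlapped, and these values were not tested. Each gene weighs equally in that mean, low ones included. ATP6V0A4 averaged 2.41 CPM with DPT and 1.05 with DMSO, ATP6V1G2 0.515 and 0.179, and ATP6V0D2 0.333 and 0.094. The low genes ATP6V1B1, ATP6V1E2 and ATP6V1G3 were lower on average with DPT. FPKM leaned to DPT over all tested genes, with a median log2 difference of 0.04 in limma on log2(FPKM + 1). The count fit gave -0.002.

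**Figure D3:**
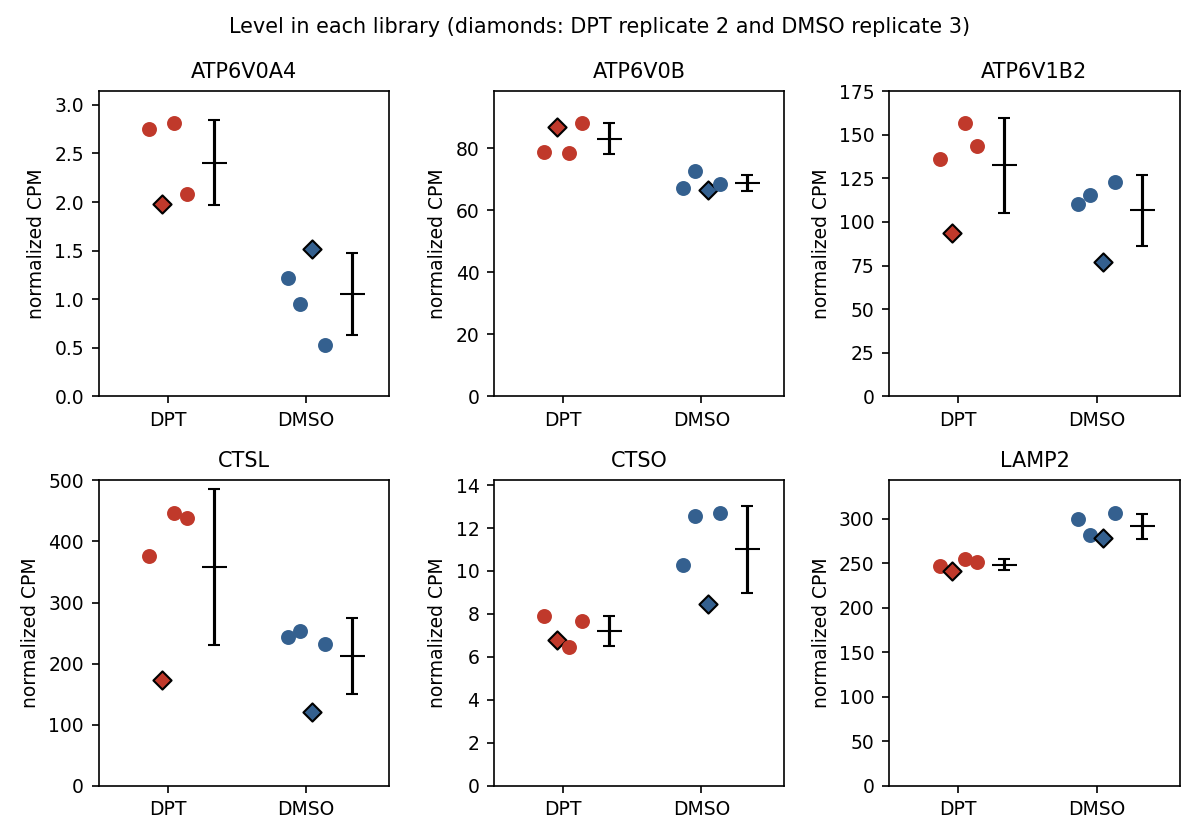
Normalized CPM of 6 members in each library (y axis from 0), DPT in red left of DMSO in blue, replicates 1 to 4 from left to right; the bar is the mean ± SD of 4 libraries, and diamonds are DPT replicate 2 and DMSO replicate 3. The groups do not overlap for ATP6V0A4, ATP6V0B, CTSO and LAMP2; for CTSL and ATP6V1B2 the diamonds lie below the other libraries of their group, and each DPT diamond lies below DMSO replicates 1, 2 and 4.

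Among the cysteine cathepsins CTSL (ENSG00000135047, chromosome 9, 87725519 to 87731393), an endoprotease of lysosomes that is also secreted, measured 376.8, 172.7, 447.4 and 438.0 CPM in DPT replicates 1 to 4 and 243.9, 252.7, 119.9 and 232.8 CPM in DMSO replicates 1 to 4. DPT replicates 1, 3 and 4 were above every DMSO library, whereas DPT replicate 2 was below 3 of them and above DMSO replicate 3. The log2 fold change was 0.76 (SE 0.31, adjusted p = 0.155) with all 8 libraries, 0.73 with the pair term (adjusted p = 1.75e-07), 0.79 in the other 6 libraries (adjusted p = 1.06e-08) and 0.53 between DPT replicate 2 and DMSO replicate 3. Without DPT replicate 2 it was 0.99 (adjusted p = 0.0144), and the adjusted p ranged from 1.06e-08 to 0.328 over all alternatives. The interferon-stimulated genes were lowest in the same 2 libraries as CTSL; their part in its level was not tested.

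CTSO (ENSG00000256043, chromosome 4, 155924118 to 155953917), a widely expressed cathepsin of low level, had 7.89, 6.77, 6.46 and 7.66 CPM in DPT replicates 1 to 4 and 10.3, 12.5, 8.47 and 12.7 CPM in DMSO replicates 1 to 4. All DPT libraries were lower, and it fell by 0.61 on the log2 scale (SE 0.15, adjusted p = 0.0331). The call was lost without DPT replicates 1, 3 or 4 (0.0582 to 0.103) or DMSO replicates 1, 2 or 4 (0.0723 to 0.0992), at log2 fold changes of -0.66 to -0.54, and in limma on FPKM (0.0577 and 0.0621). CTSH, an aminopeptidase, had 9.67, 9.35, 8.43 and 5.70 CPM in DPT replicates 1 to 4 and 10.4, 11.4, 11.3 and 10.3 CPM in DMSO replicates 1 to 4. The groups did not overlap, the log2 fold change was -0.39 (SE 0.16, adjusted p = 0.166), and it fell with the pair term (adjusted p = 0.0436), between 0.0436 and 0.292 over all alternatives. CTSB (ENSG00000164733), the most abundant of the class, measured 659.4, 627.1, 643.1 and 639.6 CPM in DPT replicates 1 to 4 and 653.9, 641.0, 651.4 and 657.4 CPM in DMSO replicates 1 to 4. Its groups overlapped, at a log2 difference of -0.02 (SE 0.05, adjusted p = 0.859).

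CTSS, a cathepsin of antigen presentation, had 3.00, 0.599, 3.05 and 2.39 CPM in DPT replicates 1 to 4 and 1.90, 1.83, 0.993 and 1.19 CPM in DMSO replicates 1 to 4. It too was lowest in DPT replicate 2 and DMSO replicate 3, where the difference had the other sign (-0.64, on 10 and 17 counts). The log2 fold change was 0.62 over all 8 libraries (adjusted p = 0.432) and 0.78 in the 6 (adjusted p = 0.0446, between 0.0446 and 0.757 over all alternatives). Without DPT replicate 2 it was 0.93 (adjusted p = 0.0491). CTSZ, a carboxypeptidase, had 82.9 to 99.3 CPM with DPT and 95.7 to 104.9 CPM with DMSO; it had a log2 fold change of -0.19 and fell with the pair term (adjusted p = 0.0172) and without DPT replicate 2 (-0.24, adjusted p = 0.026), between 0.000412 and 0.335 over all alternatives. CTSC, CTSF and CTSK had log2 fold changes of -0.14 to -0.07 and were not called with the term or in the 6 libraries.

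CTSD (ENSG00000117984, chromosome 11, 1752752 to 1764573), the main aspartic protease of lysosomes, measured 1999, 1660, 1693 and 1801 CPM in DPT replicates 1 to 4 and 2349, 2284, 1728 and 2465 CPM in DMSO replicates 1 to 4. DMSO replicate 3 lay among the DPT libraries and the other DMSO libraries above all of them. The log2 fold change was -0.30 (SE 0.11, adjusted p = 0.118). With the pair term it fell (-0.29, adjusted p = 0.000933), in the 6 libraries the value was -0.37 (adjusted p = 1.31e-05), without DMSO replicate 3 it was -0.41 (adjusted p = 0.00794), and between DPT replicate 2 and DMSO replicate 3 it was -0.06; the adjusted p ranged from 1.31e-05 to 0.266 over all alternatives. The read-through row with the symbol CTSD (ENSG00000250644) had 40.8, 34.5, 40.8 and 37.8 CPM in DPT replicates 1 to 4 and 48.0, 43.1, 39.0 and 46.1 CPM in DMSO replicates 1 to 4 (log2 fold change -0.20, adjusted p = 0.19). This row fell with the pair term (-0.20, adjusted p = 0.0208) and in the 6 libraries (-0.20, adjusted p = 0.0344), between 0.0208 and 0.4 over all alternatives. It and CTSD are thus both among the members counted as fallen in those fits. Its reads may be divided with those of CTSD. CTSA, the serine carboxypeptidase that also protects lysosomal galactosidase and neuraminidase, had 313.7, 307.8, 285.1 and 270.6 CPM in DPT replicates 1 to 4 and 328.7, 321.3, 292.7 and 323.5 CPM in DMSO replicates 1 to 4. Its groups overlapped (-0.11, SE 0.07, adjusted p = 0.388), and the 6 libraries gave -0.16 (adjusted p = 0.0166, between 0.0166 and 0.662 over all alternatives). CTSA overlaps NEURL2 by 1038 exon bases and PLTP by 200, both on the opposite strand, so its reads may be divided. Summed over the 15 cathepsins, the level was 2944 to 3516 CPM with DPT and 2979 to 3866 CPM with DMSO.

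Of the LAMPs, LAMP2 (ENSG00000005893, chromosome X, 120427827 to 120469365), which takes part in the fusion of autophagosomes with lysosomes and in chaperone-mediated autophagy, had 246.9, 241.1, 254.5 and 251.1 CPM in DPT replicates 1 to 4 and 299.1, 281.3, 277.8 and 306.9 CPM in DMSO replicates 1 to 4. All DPT libraries lay below all DMSO libraries. LAMP2 fell by 0.23 on the log2 scale (SE 0.06, adjusted p = 0.0355), and the same change was found with the pair term (-0.23), in the 6 libraries (-0.24) and between DPT replicate 2 and DMSO replicate 3 (-0.20). The call was lost without DPT replicates 1, 3 or 4 (0.0857 to 0.0948) or DMSO replicates 1, 2 or 4 (0.0685 to 0.112), at log2 fold changes of -0.25 to -0.21, and in limma on FPKM (-0.14 and -0.15, adjusted p = 0.243 and 0.247).

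LAMP1, the most abundant LAMP, measured 399.5, 347.7, 384.7 and 391.8 CPM in DPT replicates 1 to 4 and 404.4, 392.6, 361.1 and 408.9 CPM in DMSO replicates 1 to 4. The groups overlapped (log2 fold change -0.04, SE 0.07, adjusted p = 0.767). LAMP3, an interferon-inducible member known from mature dendritic cells, had 10.3, 1.68, 11.1 and 11.7 CPM in DPT replicates 1 to 4 and 9.35, 10.4, 2.10 and 8.70 CPM in DMSO replicates 1 to 4. Its low libraries were DPT replicate 2 and DMSO replicate 3, and apart from them the groups overlapped as well (log2 fold change 0.22 in the 6 libraries, adjusted p = 0.192, between 0.192 and 0.991 over all alternatives). Over the 37 tested members, DPT replicate 2 and DMSO replicate 3 were both the lowest of their group in 11 (29.7%, beside 26.3% of all tested genes) and both the highest in 3 (8.11%, beside 25.6%). The 11 include CTSL, CTSS, LAMP3, ATP6V1B2 and CTSD, and the 3 were ATP6V0D1, ATP6V0E2 and CTSC.

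The other 9 members did not pass the filter on low counts. ATP6V0D2, the d subunit known from osteoclasts, summed to 22 expected counts over the DPT libraries and 6 over the DMSO libraries, and ATP6V1G2, known from neurons, to 34 and 11. In both genes every DPT library was above every DMSO library, at no more than 8 (ATP6V0D2) and 11 (ATP6V1G2) expected counts in any library. The share of such genes below the filter is not given, so this is no result about the members. ATP6V1G2 shares 293 exon bases on the same strand with ATP6V1G2-DDX39B, so its reads may be divided. CTSV, LAMP5, CTSW and ATP6V1B1 summed to at most 37 counts per group, ATP6V1G3 and CTSE had 0 counts with DPT and 3 with DMSO, and CTSG had none. The neighbour rows ATP6V1FNB and ATP6V1G2-DDX39B passed the filter and overlapped between the groups (0.29, SE 0.29, and -0.04, SE 0.58).

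Other genes of the lysosome were read from 6 lists, of which 115 rows were tested. With all 8 libraries 1 rose and 3 fell (3.48%, beside 11% of all tested genes), and with the pair term 13 rose and 32 fell (39.1%, beside 34%). At an unadjusted p under 0.05, 6 were higher (5.22%, beside 13.5% of all) and 25 lower (21.7%, beside 13% of all) in all 8 libraries. Of 36 rows of other hydrolases HGSNAT, which acetylates heparan sulfate for its breakdown, fell by 0.29 (adjusted p = 0.0442), with 37.0 to 43.4 CPM with DPT and 46.0 to 54.4 CPM with DMSO. The median of the hydrolases was -0.16 beside -0.002 over all genes. With the pair term 3 hydrolases rose (8.33%, beside 16.9% of all tested genes) and 12 fell (33.3%, beside 17%). Of 25 rows of other membrane and cofactor proteins TPCN1, a calcium and sodium channel of endosomes and lysosomes, fell by 0.60 (SE 0.11, adjusted p = 0.00812). TPCN1 had 84.6, 97.7, 73.1 and 73.8 CPM in DPT replicates 1 to 4 and 135.9, 123.5, 110.6 and 129.1 CPM in DMSO replicates 1 to 4, with no overlap, and it was called without each single library in turn. The call of HGSNAT was lost without DPT replicates 1, 3 or 4 (0.053 to 0.13) or DMSO replicates 1, 2 or 4 (0.0874 to 0.127), at log2 fold changes of -0.33 to -0.23, with no filter (0.0522) and in limma on FPKM (0.254 and 0.258).

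Among 15 pump partners TCIRG1 fell, as above, and MEAK7, a TLDc-domain protein of the lysosome, rose by 0.49 (SE 0.12, adjusted p = 0.0308), with 57.1 to 78.2 CPM with DPT and 40.1 to 53.4 CPM with DMSO. The call of MEAK7 was lost without DPT replicates 3 or 4 (0.0556 and 0.0741) or DMSO replicates 1, 2 or 4 (0.0884 to 0.0959), at log2 fold changes of 0.44 to 0.54. With the pair term 1 partner rose (6.67%, beside 16.9% of all tested genes) and 5 fell (33.3%, beside 17%). None of 15 sorting genes, 5 cathepsin inhibitors and 19 genes of lysosomal control was called with all 8 libraries in edgeR, beside 11% of all tested genes. At an unadjusted p under 0.05, 0 and 4, 0 and 0, and 1 and 1 of these lists in turn were higher and lower, beside 13.5% and 13% of all. With the pair term 2 and 7 (13.3% and 46.7%), 0 and 1 (0% and 20%), and 4 and 2 (21.1% and 10.5%) were called higher and lower. Of all tested genes 16.9% and 17% were called so with the term. TFEB, the factor named for lysosomal gene control, had 6.12, 4.20, 2.93 and 3.25 CPM in DPT replicates 1 to 4 and 6.23, 6.64, 7.53 and 6.33 CPM in DMSO replicates 1 to 4. All DPT libraries were lower (log2 difference -0.70, SE 0.23, adjusted p = 0.0806), and it fell with the pair term (adjusted p = 0.0134) and without DPT replicate 1 (-0.95, adjusted p = 0.0226), between 0.0134 and 0.198 over all alternatives. DESeq2 on all 8 libraries and the fit on the other 6 libraries also called TFEB lower. TFE3, at 205.5 CPM with DPT and 198.6 CPM with DMSO, overlapped between the groups (0.05, adjusted p = 0.722).

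In the KEGG pathway Lysosome of the deposited table, with the members left out, 101 genes were tested, 2 rose and 6 fell (7.92%, beside 11% of all tested genes), and with the pair term 12 rose and 33 fell (44.6%, beside 34%). The called genes with the smallest adjusted p were AP1S2 (0.30, adjusted p = 0.0319) and AP1S3 (0.72, adjusted p = 0.0369), small subunits of the adaptor complex that packs vesicles at the Golgi, and TCIRG1 and LITAF (-0.53, adjusted p = 0.0309), an endosomal membrane protein. The calls of AP1S2 and LITAF were each lost without any of DPT replicates 1, 3 and 4 and DMSO replicates 1, 2 and 4 (0.0527 to 0.0988), that of AP1S2 also with no filter (0.0513) and that of LITAF in limma on FPKM (0.0961 and 0.0964). The call of AP1S3 was lost in limma on FPKM (0.105 and 0.113) and without any single library other than DPT replicate 2 (0.058 to 0.102). Their log2 fold changes in the fits that lost the call for want of 1 library were 0.24 to 0.33 for AP1S2, 0.55 to 0.79 for AP1S3 and -0.56 to -0.47 for LITAF.

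**Figure D4:**
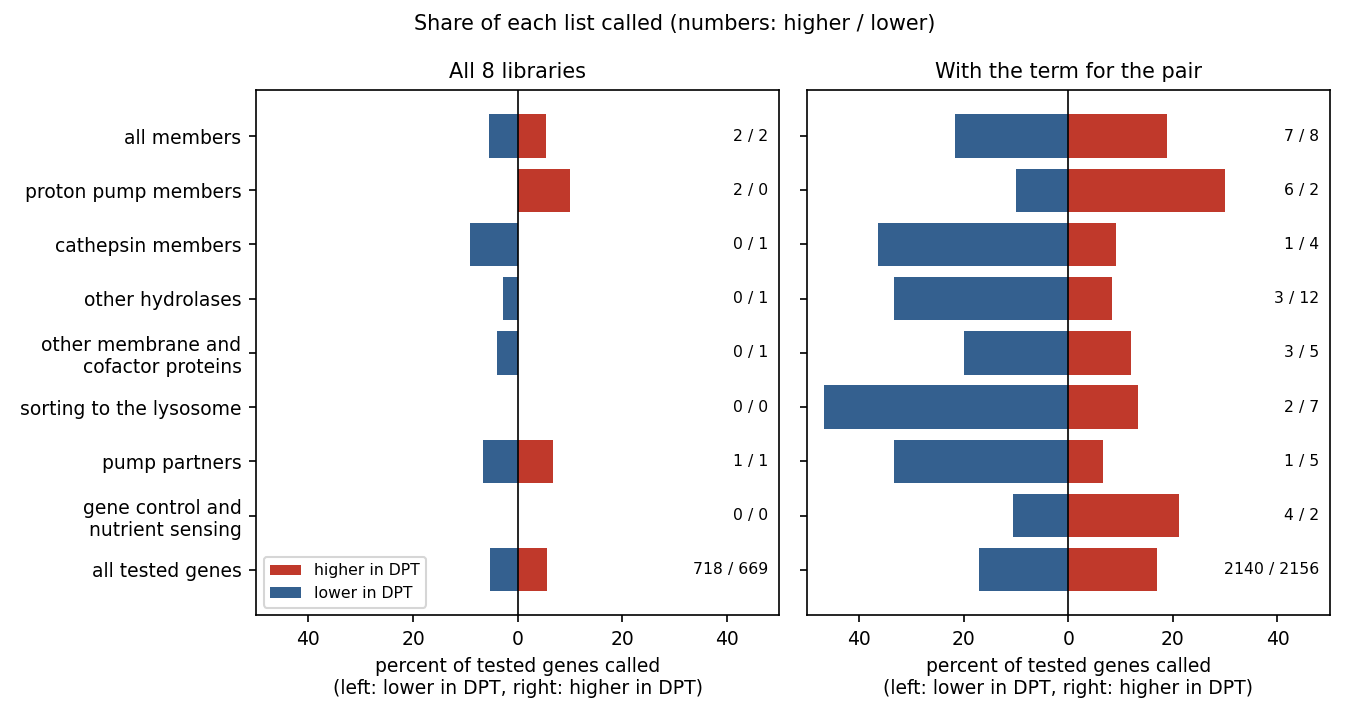
Percent of the tested genes of each list called higher (right, red) or lower (left, blue) in DPT, with all 8 libraries (left panel) and with the pair term (right panel); the numbers are counts higher / lower, and the bottom bar is all tested genes. With the term, 6 of 20 pump genes are higher and 2 lower, whereas 1 of 11 cathepsins is higher and 4 lower and 3 of 36 other hydrolases are higher and 12 lower. Of all tested genes 16.9% are higher and 17% lower with the term.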

How the data were processed

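Messenger RNA was measured in 8 libraries of H2452 cells, 4 per group, each with an expected count and an FPKM value (reads relative to the length of the gene and the size of the library) per gene. The expected counts are estimates that the authors deposited, per the file headers, and 10.8% were not whole. The FPKM values were computed by the authors, per the file headers. The tools named per the submitters' processing notes are RSEM, HISAT2, DESeq2, StringTie 1.3.1 and fastp 0.18.0, with build hg38. No source used here gives tool settings, the annotation release or any use of strand in counting. Overlapping genes may therefore share reads. Estimated counting also divides reads between near-identical genes.

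Expected counts were rounded and tested with the quasi-likelihood test of edgeR 4.0.16 in R 4.3.3 (TMM normalization, filterByExpr at minima of 10 counts per gene and 15 in total, treatment as the single term). The fit covered 12648 genes, p-values were adjusted by Benjamini-Hochberg over these, and calls were made at adjusted p under 0.05. Adjusted p is edgeR's throughout unless another tool is named. At 1 CPM (counts scaled to library size with TMM) a library held 14.8 to 17.1 counts, which limits the precision of genes near that level. Alternatives were a model term for DPT replicate 2 and DMSO replicate 3, the other 6 libraries alone, a replicate block, DESeq2 1.42.0, size factors of the RLE kind, no filter, limma 3.58.1 on log2(FPKM + 1) and log2(FPKM + 0.1), and leaving out each library. The edgeR, DESeq2 and limma fits were run on simulated counts in which the pair of libraries was not set apart from the others. There limma used log2(CPM + 1) in place of FPKM, so the simulation does not cover the FPKM fits. Members, lists and alternatives were chosen with earlier results of these data known.

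Values in every library were given for members called in all 8 libraries, for members called with the pair term and with a log2 fold change of 0.3 or more in either direction, and for the member of each role with the highest mean FPKM. In each list of other lysosomal genes up to 2 higher and 2 lower called genes were named. Other genes given with library values, such as ATP6V1A, ATP6AP1, CTSS, LAMP3, CD68 and TFEB, were chosen after their values were seen. Gene positions are from GENCODE 29 on GRCh38.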

Additional observations from a re-analysis of the deposited data

Results flagged for a closer look

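In 74 sets of 4 libraries (37 tested members in each group) 9 had a library far from the other 3, as judged by Dixon's test at 95%, which flags about 1 set in 20 by chance. In 7 of the 9 it was DMSO replicate 3 and in 2 DPT replicate 2, the libraries that stand apart on the first principal component. Over all tested genes these libraries were both the lowest of their group in 26.3% and both the highest in 25.6%. The share of flagged sets over all tested genes is not given, so the count is no result about the members.

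In DMSO replicate 3 the values above the others were ATP6V1A at 224.5 CPM (202.7 to 205.6 in the others), ATP6V0A2 at 37.95 CPM (35.02 to 35.27), ATP6V0D1 at 114.6 CPM (97.81 to 100.0) and CTSC at 65.11 CPM (52.22 to 52.74). Those below were ATP6V1G1 at 70.36 CPM (80.88 to 81.09), CTSL at 119.9 CPM (232.8 to 252.7) and CTSZ at 95.65 CPM (104.0 to 104.9). In DPT replicate 2 CTSF was at 2.877 CPM (4.038 to 4.245) and LAMP3 at 1.678 CPM (10.28 to 11.7). The part of the difference between the pair and the other libraries in these values was not tested.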

How the results depend on the processing

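Counts of calls depended on how DPT replicate 2 and DMSO replicate 3 were treated, and directions of called members did not change in any of the 16 alternatives. All genes called higher and lower numbered 2140 and 2156 with the pair term, 2158 and 2169 in the other 6 libraries, 171 and 174 with the replicate block, and 332 to 1183 and 311 to 1108 when single libraries were left out. In limma on FPKM 342 (pseudocount 1) and 336 (pseudocount 0.1) genes were lower, beside 737 and 738 higher, so the balance moved towards rises. Members called higher and lower numbered 7 and 8 with the term, 7 and 9 in the 6 libraries, 0 and 0 with the replicate block, 3 and 4 in DESeq2, 1 and 2 with no filter, 1 and 0 in both limma fits, and 0 to 5 and 0 to 4 when single libraries were left out. Genes of the 6 other lists called higher and lower numbered 13 and 32, 14 and 39, 0 and 1, 2 and 8 in the first 4 of these alternatives, 1 and 1 in both limma fits, and 0 to 8 and 1 to 15 when single libraries were left out. The cause of these changes was not tested. In limma on FPKM 6 members had the other sign (ATP6V0D1, ATP6V0E2, ATP6V1G2-DDX39B, CTSB, CTSC and LAMP1), of at most 0.07 with all 8 libraries. Uncalled members also changed sign in other alternatives, at values of up to 0.22 with all 8 libraries (ATP6V1C2 without DPT replicate 1), 0.19 (LAMP3 without DMSO replicate 3) and -0.14 (CTSK in the 6 libraries). Replicate numbers did not pair the libraries: same-numbered libraries had correlations of deviations of 0.204, -0.314, -0.396 and 0.209, and DPT replicate 2 correlated with DMSO replicate 3 at 0.676. Members near 1 CPM, about 15 to 17 counts per library, are limited by depth.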
